A study of Mus musculus with 22 samples.

Results

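The genes described here are 8 that sit along the shear-stress pathway of endothelial cells, followed through the endothelial to haematopoietic transition in the mouse embryo. They are the Krüppel-like transcription factors *Klf2*, *Klf4*, *Klf6* and *Klf10*, the endothelial nitric oxide synthase *Nos3*, thrombomodulin (*Thbd*), endothelin-1 (*Edn1*) and the mechanosensitive ion channel *Piezo1*. They were taken by name for their place in this pathway, with earlier results of these data known, and all 8 have a row among the 24454 gene symbols of the count table. Bulk RNA-seq was made from 22 libraries of 25 cells each, sorted as VE-Cadherin positive (VE-Cad+) cells from the aorta-gonad-mesonephros (AGM) region of C57BL/6 embryos. The cells were neither cultured nor treated, and the labels name no engineered allele. The sort on CD44 and Kit gave 10 CD44Neg libraries, labelled as endothelial cells (3 at E11, 3 at E10, 4 at E9.5). It gave 6 CD44LowKitNeg libraries, labelled as haemogenic endothelial cells (3 at E11, 2 at E10, 1 at E9.5). There were 3 CD44LowKitPos libraries, labelled as Pre-HSPC (1 at E9.5 and 2 at E10), and 3 CD44High libraries, labelled as HSPC, the haematopoietic stem and progenitor cells (all at E11). No source used here says whether the tubes of 1 stage came from separate embryos or litters, so the p-values measure only the spread between these samples, which may be technical. A date code in the labels changes with the stage, and the effects of stage and date cannot be told apart. The titles of all CD44LowKitPos and CD44High libraries also carry the letters KG, which no CD44Neg or CD44LowKitNeg title has. The labels do not say what the letters mean, and what they mark cannot be told apart from that split of the populations.

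Blood flow drags on the endothelium, and the cells sense this shear stress with ion channels such as PIEZO1 and with a complex of PECAM1, VE-Cadherin and VEGF receptors. The signal passes through the kinases MEKK3, MEK5 and ERK5 to MEF2 factors, which switch on *KLF2* and *KLF4*. These factors raise *NOS3*, which makes the vasodilator nitric oxide, and *THBD*, which turns thrombin into an activator of protein C, and they hold down *EDN1*, a potent vasoconstrictor. In the embryonic aorta, flow and nitric oxide have been tied to the formation of haematopoietic stem cells. *KLF6* and *KLF10* are widely expressed members of the same family, and *KLF10* is an early target of TGFβ.

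Promoter sequence, taken as the 250 bases before the RefSeq start on GRCm38.p6, was at hand for 5 of the 8 genes (*Klf2*, *Klf4*, *Klf6*, *Edn1* and *Piezo1*). The stretches shown are those that hold the elements best known from flow signalling, a MEF2 site in *Klf2* and the shear stress response element in *Edn1* and *Piezo1*. Capitals mark the matched element, and each stretch is written 5′ to 3′ on the strand of its gene and lies before the start of the gene.
*Klf2*, chr8:72318842-72318981, plus strand: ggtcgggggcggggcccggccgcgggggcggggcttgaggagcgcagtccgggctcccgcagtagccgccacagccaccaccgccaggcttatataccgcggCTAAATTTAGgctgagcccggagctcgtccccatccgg
*Edn1*, chr13:42301356-42301415, plus strand: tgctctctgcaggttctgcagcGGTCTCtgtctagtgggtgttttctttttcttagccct
*Piezo1*, chr8:122551460-122551519, minus strand: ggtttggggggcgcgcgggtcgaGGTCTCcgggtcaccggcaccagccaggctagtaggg

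The MEF2 site of *Klf2* spans bases -118 to -109, reads the same on both strands, and was the only MEF2 match among the 5 promoters. A MEF2 match was held by 2.92% of the 32851 promoters of that length. The shear stress response element, GAGACC, was searched on both strands and appears above as its reverse complement, at bases -98 to -93 in *Edn1* and -167 to -162 in *Piezo1*. It was found in 2 of the 5 promoters and in 13.7% of all promoters. The core bound by KLF factors, CACCC, was found in 3 of 5 (*Klf2*, *Edn1* and *Piezo1*) against 52.0% of all, and the GC box, GGGCGG, in 4 of 5 (all but *Edn1*) against 32.7%. A TATA box, TATAAA, was matched in *Piezo1* alone, against 12.4% of all. The cyclic AMP response element TGACGTCA (1.55% of all), the AP-1 site TGANTCA (6.75%) and the CArG box (1.47%) were not matched in these 5 windows. Every match is a description of letters.

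Depth ran from 3912350 to 8657546 counted reads per library. Levels are given as normalised CPM, the read counts scaled to library size by the TMM method. Where no read was counted, a level of up to 3 counts (0.348 to 0.816 CPM, depending on the library) remains possible. Without molecular identifiers, such limits take in counting error and nothing more. Libraries of the same population and stage differed by 16.997 to 85.2 times the counting error, measured as chi-square per degree of freedom over 20 pairs. The labels were set against summed marker levels. The 10 endothelial markers summed to 4046 to 7093 normalised CPM in CD44Neg and 4321 to 10811 in CD44LowKitNeg. They summed to 859 to 2207 in CD44LowKitPos and 17.02 to 78.8 in CD44High, where *Cdh5*, the gene of VE-Cadherin, was at 0 in all 3 libraries. The 10 macrophage markers, all detected in CD44High, summed there to 3760 to 6086 CPM, against 168 to 230 in CD44LowKitPos, 0 to 72.4 in CD44LowKitNeg and 1.21 to 16.95 in CD44Neg. The 10 blood markers summed to 2083 to 3958 CPM in CD44High, 390 to 1299 in CD44LowKitPos and 151 to 350 in the 16 endothelial libraries. The CD44High libraries thus carried few endothelial and many macrophage transcripts. The 10 erythroid markers summed to 96.1 to 368 CPM in CD44High and to at most 60.7 in the other libraries. The 6 megakaryocyte markers summed to 35.4 to 259 CPM in the 2 populations with blood transcripts and to at most 16.1 in the others. The 10 mesenchyme and muscle markers summed to 0.774 to 134 CPM in CD44Neg (median 19.8), 134 to 356 in CD44LowKitNeg (median 220), 153 to 295 in CD44LowKitPos and 0.272 to 788 in CD44High. The 6 neural markers summed to 30.5 to 117 CPM in CD44Neg, 6.99 to 22.95 in CD44LowKitNeg and at most 13.4 in the others. Both sums thus separated the endothelial populations without overlap, the first narrowly. Of the 6 neural markers, however, 1 passed the filter between those populations, *Nes* (log2 -2.02 ± 0.36, SE). *Elavl3* and *Sox1* were at 0 in both populations, and *Sox2* and *Pax6* in CD44LowKitNeg.

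Between CD44LowKitNeg and CD44Neg, *Edn1* was the 1 gene of the 8 called. In CD44Neg the lowest, median and highest *Edn1* levels were 16.3, 47.7 and 77.2 normalised CPM, and in CD44LowKitNeg they were 75.5, 202 and 445. The means were 47.3 ± 18.5 (SD, n = 10) and 226 ± 134 (SD, n = 6). The groups met only at the margin, where the lowest CD44LowKitNeg library lay just under the highest CD44Neg library, both from E10. *Edn1* rose by a log2 fold change of 2.26 ± 0.33 (SE), with an adjusted p of 9.57e-05 in edgeR's quasi-likelihood test over 16 libraries. Of all 11022 genes tested in this comparison, 10.2% were called at an adjusted p under 0.01, 4.94% as higher, and 1 of the 8 genes was called. With all 22 libraries sharing 1 estimate of the spread, the log2 difference was 2.26 ± 0.64 and the adjusted p was 0.0170, so the call was lost. In a fit of the 6 E11 libraries and no others, *Edn1* rose by 2.84 ± 0.32 (adjusted p = 0.00128), with 3.41% of all genes called. In a fit of the 5 E10 libraries it differed by 0.91 ± 0.41 (adjusted p = 0.278), with 0.00894% called. As contrasts of the fit of 22 libraries by population and stage, whose spread comes from every population, the differences were 2.82 ± 0.94 at E11 (adjusted p = 0.0780) and 0.90 ± 0.97 at E10 (adjusted p = 0.695), and 2.89% and 0.205% of all genes were called. It kept its call in 16 of 16 fits without 1 library, and over 27 alternatives its adjusted p ran from 7.1e-10 to 0.695. The mesenchyme and muscle sum was higher and the neural sum lower in CD44LowKitNeg, as given above. The 10 erythroid markers summed to 0 to 22.7 CPM in CD44Neg (median 10.2) and 21.5 to 60.7 in CD44LowKitNeg (median 33.3), and 3 of 10 endothelial markers were called higher, *Tek*, *Cdh5* and *Ramp2*. Their part in the *Edn1* difference was not tested.

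*Nos3* pointed the same way without passing the test. Its lowest, median and highest levels were 18.8, 37.97 and 72.7 CPM in CD44Neg and 29.0, 69.6 and 133 in CD44LowKitNeg, and the groups overlapped over most of the CD44Neg range. The log2 difference was 0.87 ± 0.33 (adjusted p = 0.0656). It was 1.35 ± 0.34 in the fit of E11 libraries only (adjusted p = 0.0363) and -0.02 ± 0.34 in that of E10 libraries only (adjusted p = 0.990), and over 27 alternatives the adjusted p ran from 0.0196 to 1.

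None of the 4 transcription factors passed the test between the endothelial populations. *Klf2* levels were 15.4, 41.4 and 54.2 CPM (lowest, median, highest) in CD44Neg and 12.8, 37.0 and 99.0 in CD44LowKitNeg, with a log2 difference of 0.22 ± 0.35 (adjusted p = 0.717). The *Klf2* range of CD44LowKitNeg thus spanned that of CD44Neg on both sides. Its log2 difference was -0.53 ± 0.43 in the fit of E10 libraries only (adjusted p = 0.570). In the fit of E11 libraries only it was 0.77 ± 0.42 (adjusted p = 0.303). *Klf4*, the closest relative of *Klf2* in flow signalling, had the widest spread relative to its mean of the 8 genes in both populations, at 0, 8.47 and 22.6 CPM in CD44Neg and 0.947, 22.1 and 57.8 in CD44LowKitNeg, and its log2 difference was 1.49 ± 0.78 (adjusted p = 0.197). *Klf6* stood at 67.1, 110 and 144 CPM in CD44Neg and 45.5, 61.3 and 155 in CD44LowKitNeg, where the E9.5 library was the high one, and the log2 difference was -0.47 ± 0.25 (adjusted p = 0.205). *Klf10* was even between them, with means of 82.3 ± 26.0 (SD, n = 10) and 86.8 ± 17.8 (SD, n = 6) CPM and a log2 difference of 0.08 ± 0.23 (adjusted p = 0.848). Factors of this family and the immediate-early genes can be induced while tissue is dissociated, and the 30 genes of an immediate-early and dissociation list summed to 3785 to 5918 CPM in CD44Neg and to 2497 to 3909 in CD44LowKitNeg. Of the 26 tested, 0 were called higher and 1 lower, the chaperone *Hspa8* (log2 -1.13 ± 0.22, adjusted p = 0.0012), where 10.2% of all genes were called. Gene by gene the list pointed the other way from its sums, with a positive log2 difference in 18 of the 26 and a median of 0.24. At an unadjusted p under 0.05 there were 9 of the 26, and the Wald test called 6. The part of dissociation in the values of these factors was not tested.

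*Thbd* and *Piezo1* did not pass the test between the endothelial populations. *Thbd*, the anticoagulant receptor of thrombin, had means of 92.7 ± 49.7 (SD, n = 10) CPM in CD44Neg and 89.6 ± 32.7 (SD, n = 6) in CD44LowKitNeg, and its log2 difference was -0.04 ± 0.33 (adjusted p = 0.952). *Piezo1* had means of 35.2 ± 18.7 and 30.9 ± 17.7 CPM and a log2 difference of -0.18 ± 0.43 (adjusted p = 0.824). The *Thbd* range of CD44LowKitNeg, 50.6 to 129 CPM, lay inside that of CD44Neg, 29.1 to 181, and so did that of *Piezo1*, 13.1 to 56.3 inside 7.45 to 57.5. Within E10, however, the *Piezo1* groups were apart, at 57.5, 57.0 and 39.9 CPM in CD44Neg and 14.3 and 19.75 in CD44LowKitNeg (log2 -1.52 ± 0.47, adjusted p = 0.150, in the fit of E10 libraries only). Within E11 they overlapped (log2 0.13 ± 0.34, adjusted p = 0.875), and over 27 alternatives the adjusted p ran from 0.150 to 1.

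**Figure D1:**
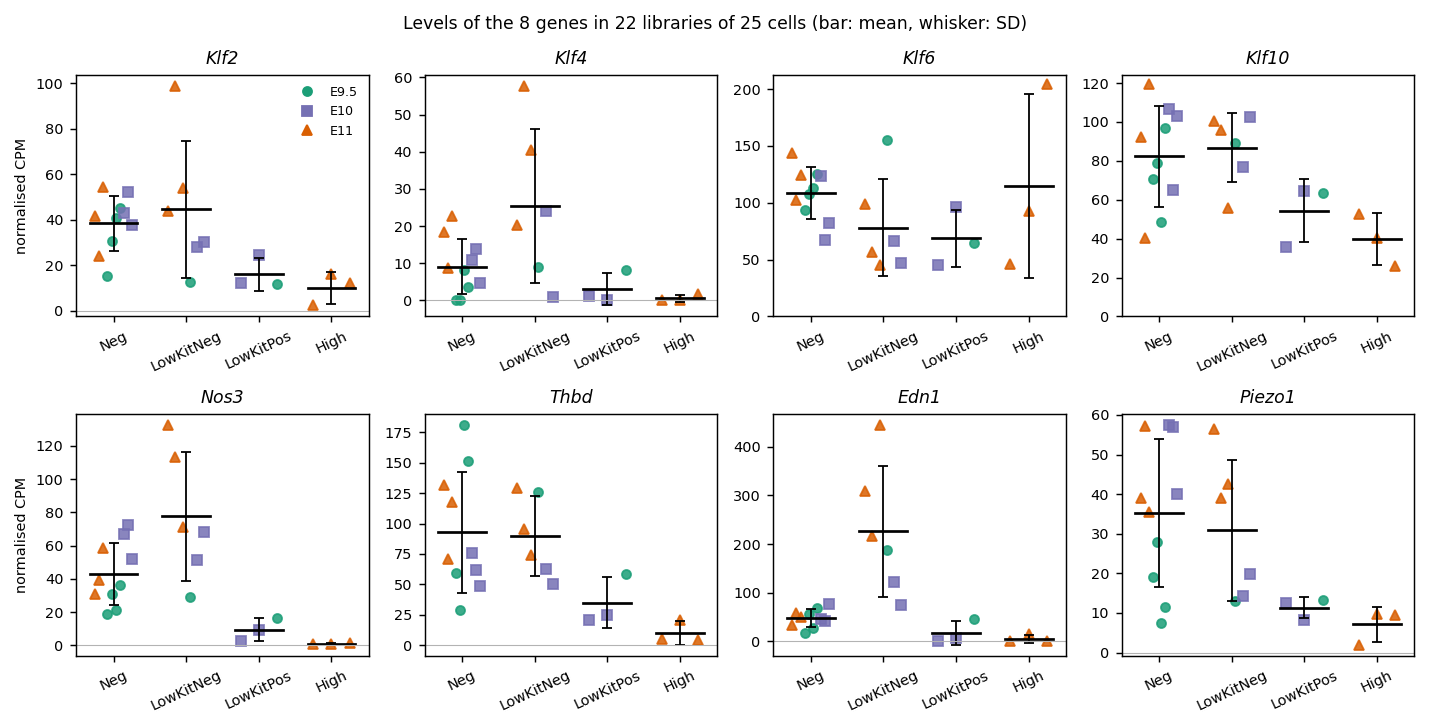
Normalised CPM of each gene (vertical axes, each with its own range, after TMM scaling) in the 4 sorted populations, with 1 symbol per library, colours and shapes for the stages, a bar at the mean and whiskers of 1 SD. *Nos3* lies between 0.533 and 1.36 CPM in the 3 CD44High libraries and between 29.0 and 133 in CD44LowKitNeg, while *Edn1* reaches 445 CPM in CD44LowKitNeg and at most 77.2 in CD44Neg.

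The step from CD44LowKitNeg to CD44LowKitPos, where the sorted cells gain Kit and blood transcripts, was marked by *Nos3*. *Nos3* measured 2.48, 9.20 and 16.4 CPM in the 3 CD44LowKitPos libraries, all under the lowest CD44LowKitNeg library at 29.0. It fell by 3.05 ± 0.60 (SE) on the log2 scale, with an adjusted p of 0.00272 in edgeR's test over 22 libraries, in which 4.26% of the 12949 genes tested were called and 1.71% were called lower. Of the 552 genes called, 330 were higher, and with DESeq2 size factors 218 of 491 were. At matched stages, a contrast of the fit of 22 libraries by population and stage that weights E9.5 and E10 as CD44LowKitPos holds them, the log2 difference was -2.50 ± 0.46 and the adjusted p 0.0023, with 2.57% of all genes called. The call was lost without CD44LowKitPos replicate 17 (adjusted p = 0.0284) or replicate 18 (adjusted p = 0.0166) and the log2 differences were then -2.62 and -3.06. Without replicate 19 the difference was -3.75 and the call was kept (adjusted p = 0.00157), and over 15 alternatives the adjusted p ran from 5.9e-07 to 0.0284.

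*Edn1* levels were also below those of every CD44LowKitNeg library, without a call at 0.01. The 3 CD44LowKitPos libraries gave 0, 6.94 and 46.0 CPM, a wide spread that ran from 0 counts to 305, and the log2 difference was -3.68 ± 1.10 (adjusted p = 0.029). Without replicate 19, the library at 46.0 CPM, the difference was -6.01 and the adjusted p 0.00558, within a range of 0.00558 to 0.126 over 15 alternatives. Replicate 19 is the E9.5 library of this population, and its marker sums stood apart, at 2207 CPM of endothelial markers against 859 and 1325 in the others and 390 of blood markers against 1299 and 1092. The part of this make-up in its levels of *Nos3*, *Edn1*, *Thbd* and *Klf4*, each the highest of the population, was not tested. Non-overlap of this kind, all lower, was seen for 2 of the 8 genes and for 7.35% of all genes tested.

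The other 6 genes had negative differences that did not pass the test. *Klf2* measured 12.1, 24.4 and 11.6 CPM in CD44LowKitPos (log2 -1.47 ± 0.57, adjusted p = 0.0927). *Thbd* measured 20.6, 24.8 and 58.8 CPM (log2 -1.37 ± 0.56, adjusted p = 0.110, and -2.01 without replicate 19), and *Piezo1* 12.6, 8.27 and 13.3 (log2 -1.44 ± 0.64, adjusted p = 0.147). *Klf10* measured 35.5, 64.4 and 63.3 CPM (log2 -0.67 ± 0.33, adjusted p = 0.192). The E9.5 and E10 libraries of CD44LowKitNeg, at 12.8 to 30.0 CPM of *Klf2* and 13.1 to 19.75 of *Piezo1*, were nearer to these levels than the E11 libraries. At matched stages the log2 differences were -0.49 ± 0.55 for *Klf2* (adjusted p = 0.773, range over 15 alternatives 0.0238 to 0.773) and -0.46 ± 0.55 for *Piezo1* (adjusted p = 0.798, range 0.0553 to 0.798). *Klf4* stood at 1.09, 0 and 8.14 CPM (log2 -3.04 ± 1.51, adjusted p = 0.197, and -5.56 without replicate 19), and *Klf6* at 45.4, 95.9 and 64.4 (log2 -0.19 ± 0.40, adjusted p = 0.816). The median log2 difference of the 8 genes was -1.46, against -0.02 over all genes tested. The 10 endothelial markers had a median of -2.44, with 7 called lower and 0 higher. In a library of 25 cells, fewer cells that express a gene and less of its RNA per cell cannot be told apart.

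The next comparison shares its CD44LowKitPos libraries with the one above. Against CD44Neg, CD44LowKitPos had a lower fitted level of all 8 genes and 0 calls by edgeR, against 3.48% of genes tested. At an unadjusted p under 0.05 there were 4, and DESeq2's Wald test called 1, *Nos3*. *Nos3* differed by -2.19 ± 0.55 on the log2 scale (adjusted p = 0.0140), and its 3 CD44LowKitPos levels lay under the lowest CD44Neg library at 18.8 CPM, as was so for 4.37% of all genes. At matched stages *Nos3* was called, with a log2 difference of -2.50 ± 0.43 and an adjusted p of 7.35e-04, where 4.1% of all genes were called. Leaving out replicate 19, its highest CD44LowKitPos library, also gave a call, at -2.86 (adjusted p = 0.00672), and over 19 alternatives the adjusted p ran from 3.83e-04 to 0.108. Cell make-up moved in this comparison too, with 4 of 10 endothelial markers called lower. Called higher were 5 of 10 blood, 2 of 10 macrophage and 2 of 6 megakaryocyte markers. The part of this make-up in the 8 genes was not tested.

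**Figure D2:**
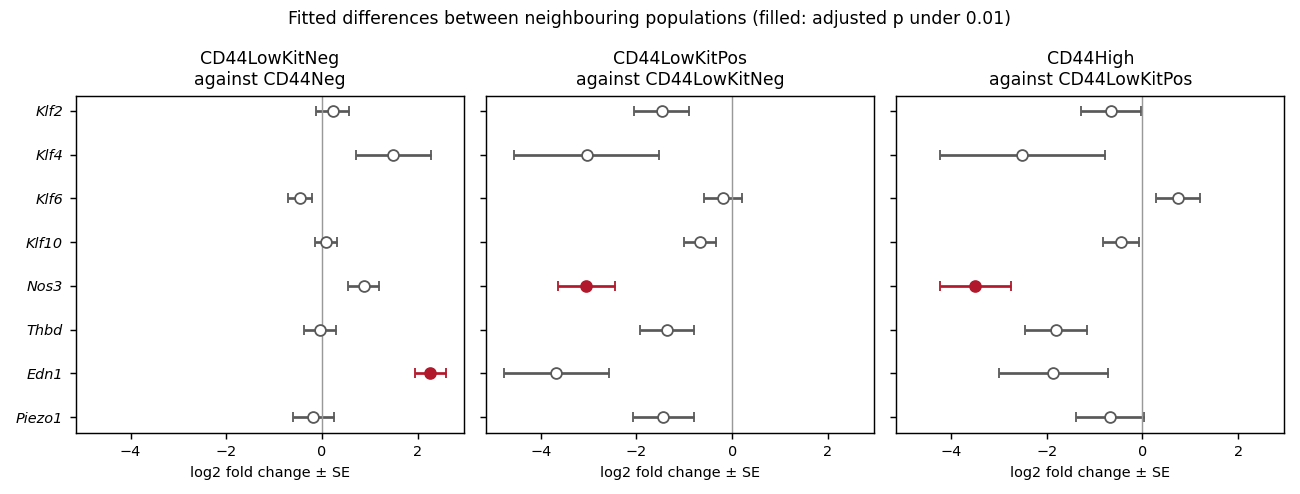
Log2 fold changes (horizontal axis) with standard errors from edgeR for the 8 genes in 3 comparisons of neighbouring populations, filled where the adjusted p was under 0.01. *Edn1* is filled in the first comparison at 2.26, and *Nos3* in the second at -3.05 and the third at -3.49.

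From CD44LowKitPos to CD44High the *Nos3* level went down again, to the limit of detection. The 3 CD44High libraries held 3, 2 and 5 *Nos3* counts, which is 0.594, 0.533 and 1.36 CPM, so that 2 of them are at or under the 3 counts that a 0 allows. The log2 difference was -3.49 ± 0.74 (adjusted p = 0.00379), in a comparison that called 3.01% of genes, 2.23% as lower, and 1 of the 8 genes. All 3 CD44High levels were below all CD44LowKitPos levels, as was so for 12% of all genes. The populations share no stage, and the difference between them cannot be told apart from that between E11 and the earlier days. The call was lost without CD44LowKitPos replicate 19 (log2 -2.83, adjusted p = 0.0286), CD44High replicate 20 (-3.39, 0.0218) or CD44High replicate 21 (-3.36, 0.0216), and over 10 alternatives the adjusted p ran from 3.08e-04 to 0.0286. *Thbd* stood at 4.75, 21.04 and 4.08 CPM in CD44High (log2 -1.81 ± 0.64, adjusted p = 0.105). Without CD44High replicate 21 it differed by -3.04 (adjusted p = 0.0126), and without CD44LowKitPos replicate 19 by -1.20 (adjusted p = 0.413). In this comparison 6 of 10 macrophage markers were called higher and all 10 endothelial markers lower, and the part of this make-up in the *Nos3* level was not tested. *Klf6* stood at 46.5, 92.9 and 204 CPM in CD44High (log2 0.74 ± 0.46, adjusted p = 0.438), with overlapping groups, and without replicate 22, its highest library, the difference was -0.028. In that library the immediate-early and dissociation genes summed to 6531 CPM, against 2972 and 3625 in the other CD44High libraries, and the mesenchyme and muscle markers to 0.272, against 788 and 615. Their part in the *Klf6* level was not tested. *Edn1* had a difference of -1.86 (adjusted p = 0.432), which was 0.44 without CD44LowKitPos replicate 19.

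Compared with CD44LowKitNeg at the other end of the series, CD44High had 3 of the 8 genes called, all lower, against 16% of all 12949 genes called and 8.17% called lower. This comparison shares its libraries with those above. *Nos3* fell by 6.54 ± 0.77 on the log2 scale (adjusted p = 1.21e-06), *Thbd* by 3.18 ± 0.63 (5.68e-04) and *Edn1* by 5.54 ± 1.25 (0.00176). The 3 CD44High levels of *Edn1* were 0.198, 14.6 and 0 CPM, and without replicate 21, the library at 14.6 CPM, 1 read is left in that population, so a fitted difference is not given. Its call was lost without CD44High replicate 20 (log2 -5.06, adjusted p = 0.0111) or 22 (-5.07, 0.0107), and over 15 alternatives the adjusted p ran from 8.61e-06 to 0.0111. *Thbd*, at 4.75, 21.04 and 4.08 CPM, differed by -4.42 without replicate 21, again its highest library, and kept its call. *Klf2*, at 2.38, 15.98 and 12.2 CPM, differed by -2.14 ± 0.60 and was not called (adjusted p = 0.0101). With all libraries kept it was called with DESeq2 size factors (adjusted p = 0.00844), no filter (0.00991) or DESeq2's Wald test (5.87e-04). It was called without CD44LowKitNeg replicate 14 (adjusted p = 0.00357), 15 (0.00686) or 16 (0.00889) or CD44High replicate 21 (0.00875), the last with a log2 difference of -2.75. *Klf10*, at 52.7, 40.5 and 25.8 CPM, differed by -1.13 ± 0.34 (adjusted p = 0.0162, and 0.00962 without CD44LowKitNeg replicate 13) and *Piezo1*, at 1.98, 9.85 and 9.52, by -2.12 ± 0.68 (adjusted p = 0.0222). *Klf4* had 0, 0 and 6 counts in CD44High (adjusted p = 0.0253). In 5 of the 8 genes all CD44High levels were below all CD44LowKitNeg levels, against 11.7% of all genes.

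In a fit of the 9 E11 libraries and no others, which holds the stage constant, 6 of the 8 genes were called lower in CD44High than in CD44LowKitNeg. They were *Klf2*, *Klf4*, *Nos3*, *Thbd*, *Edn1* and *Piezo1*. Of all genes, 15.5% were called either way, and 849 of those 1847 were higher. The same 6 were called in the E11 contrast of the fit of 22 libraries by population and stage. There 16.2% of all genes were called either way, and 1164 of those 2367 were higher. With E11 libraries only, *Klf2* differed by -2.82 ± 0.66 (adjusted p = 0.00908) and *Piezo1* by -2.82 ± 0.58 (adjusted p = 0.00478), within ranges over 15 alternatives of 5.87e-04 to 0.0433 and 0.00107 to 0.0896. *Klf6* was not among them (log2 0.65 ± 0.48, adjusted p = 0.348). Against CD44Neg, 2 of the 8 were called, *Nos3* (log2 -5.68 ± 0.74, adjusted p = 3.56e-06) and *Thbd* (log2 -3.22 ± 0.62, adjusted p = 3.80e-04), with 14.4% of all genes called and 7.25% called lower. Without CD44High replicate 21 *Thbd* differed by -4.44 and kept its call, and *Edn1*, not called with all libraries (log2 -3.28 ± 1.09, adjusted p = 0.0309), was called without it (0.00118), on 1 read left in CD44High. All CD44High levels of *Nos3*, *Thbd* and *Edn1* were below all CD44Neg levels, as was so for 9.12% of all genes. In the fit of E11 libraries only, 3 of the 8 were called lower, *Nos3*, *Thbd* and *Piezo1* (log2 -2.70 ± 0.58, adjusted p = 0.00908). Of all genes, 8.47% were called either way, and 364 of those 1011 were higher. The E11 contrast of the fit of 22 libraries called the same 3, against 9.42% of all genes either way, 471 of those 1376 being higher. *Piezo1* was not called over all stages (adjusted p = 0.0124) and was without CD44Neg replicate 6 (0.0051) or 7 (0.00767), as was *Klf10* (adjusted p = 0.0197) without replicate 2 (0.00917). The comparisons of CD44High with CD44LowKitNeg and with CD44Neg move with the macrophage and endothelial sums given above, all 10 macrophage markers being called higher and all 10 endothelial markers lower, and the part of this make-up in the 8 genes was not tested.

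Stage was read within the endothelial populations. In CD44Neg, *Nos3* was lowest at E9.5, at 18.8, 31.0, 21.4 and 36.4 CPM, and stood at 66.7, 72.7 and 51.8 at E10 and at 31.0, 39.5 and 58.4 at E11. Every E10 library was above every E9.5 library, and the log2 difference was 1.17 ± 0.41 (adjusted p = 0.299). *Piezo1* measured 19.1, 27.9, 7.45 and 11.5 CPM at E9.5, against 57.5, 57.0 and 39.9 at E10 and 38.9, 57.2 and 35.5 at E11. All 6 later libraries lay above all 4 at E9.5, with log2 differences of 1.57 ± 0.51 at E10 (adjusted p = 0.243) and 1.38 ± 0.51 at E11 (adjusted p = 0.259). *Klf4* was at 0, 0.239, 8.19 and 3.59 CPM at E9.5 and at 18.3, 8.76 and 22.6 at E11 (log2 2.42 ± 1.28, adjusted p = 0.457, and 3.57 without replicate 6), and 8% of all genes had every E11 library above every E9.5 library. None of the 8 genes was called between stages of CD44Neg by edgeR or by DESeq2's Wald test, where edgeR called 0.0411% of 14609 genes between E11 and E9.5 and 0 genes in the other contrasts. At an unadjusted p under 0.05 there were 2 of the 8 between E10 and E9.5, 1 between E11 and E9.5, and 0 between E11 and E10. Of all genes, 5.91% had every E10 library above every E9.5 library. Other sums differed between stages. The endothelial markers summed to 4046 to 4914 CPM at E9.5, 5602 to 6194 at E10 and 6473 to 7093 at E11, with no overlap. Between E9.5 and E11, 5 other measures of cell make-up or RNA did not overlap either, while each overlapped between E9.5 and E10. The mesenchyme and muscle markers summed to 28.8 to 134 CPM at E9.5, 4.70 to 106 at E10 and 0.774 to 10.7 at E11, and *Rn45s*, the 45S pre-ribosomal RNA, took 1.92% to 13.8%, 9.11% to 19.3% and 15.2% to 17.9% of the counts. The blood markers summed to 176 to 239, 184 to 272 and 269 to 350 CPM and the neural markers to 56.0 to 80.2, 45.4 to 117 and 30.5 to 43.8. The immediate-early and dissociation genes summed to 4684 to 5918 CPM at E9.5, 3785 to 4752 at E10 and 3813 to 4403 at E11. Gene by gene, 18 of their 28 genes tested at E10 and 20 at E11 had a positive log2 difference from E9.5, with medians of 0.61 and 0.71. Of these 28, 0 were called in either contrast with E9.5, while 10 at E10 and 8 at E11 had an unadjusted p under 0.05. The Wald test called 2 and 0. The part of these sums and genes in the levels of the 8 genes was not tested.

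In CD44LowKitNeg the E11 libraries held the highest levels of 4 genes, each without overlap with the 3 earlier libraries. *Klf2* was at 44.0, 99.0 and 53.9 CPM at E11, against 12.8 at E9.5 and 28.03 and 30.0 at E10 (log2 1.60 ± 0.56, adjusted p = 0.126). *Nos3* was at 133, 113 and 71.3 CPM at E11, against 29.0, 51.5 and 68.0 (log2 1.20 ± 0.44, adjusted p = 0.149). *Piezo1* was at 56.3, 39.1 and 42.6 CPM, against 13.1, 14.3 and 19.75 (log2 1.59 ± 0.55, adjusted p = 0.1248), and *Edn1* at 308, 217 and 445, against 187, 122 and 75.5 (log2 1.43 ± 0.89, adjusted p = 0.425). Of all genes, 9.32% had all E11 libraries higher in this comparison and 1.19% were called, and 0 of the 8 were called by edgeR or by the Wald test, with 3 at an unadjusted p under 0.05. The endothelial markers moved with the stage, from 4321 to 5780 CPM in the earlier libraries to 9315 to 10811 at E11, with a median log2 difference of 1.18 beside 1.32 for the 8 genes. Macrophage markers summed to 28.9 to 72.4 CPM in the earlier libraries and 0 to 9.95 at E11, with 1 of 10 called lower, and mesenchyme and muscle markers to 237 to 356 and 134 to 204. *Rn45s* moved with it too, from 7.29% to 11.1% of the counts in the earlier libraries to 17.4% to 19.2% at E11. The part of any of these in the levels was not tested.

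Whether the population difference itself changed between E10 and E11 was tested as an interaction in the fit of 22 libraries by population and stage. The contrast rests on 11 libraries, while the spread comes from every population. It was 1.38 ± 0.66 on the log2 scale for *Nos3* (adjusted p = 0.541), 1.65 ± 0.83 for *Piezo1* (adjusted p = 0.561), 1.93 ± 1.34 for *Edn1* (adjusted p = 0.744) and 1.31 ± 0.83 for *Klf2* (adjusted p = 0.693). None of the 8 was called by edgeR or by the Wald test, *Nos3* being the 1 gene with an unadjusted p under 0.05, and 0.0137% of all genes were called.

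**Figure D3:**
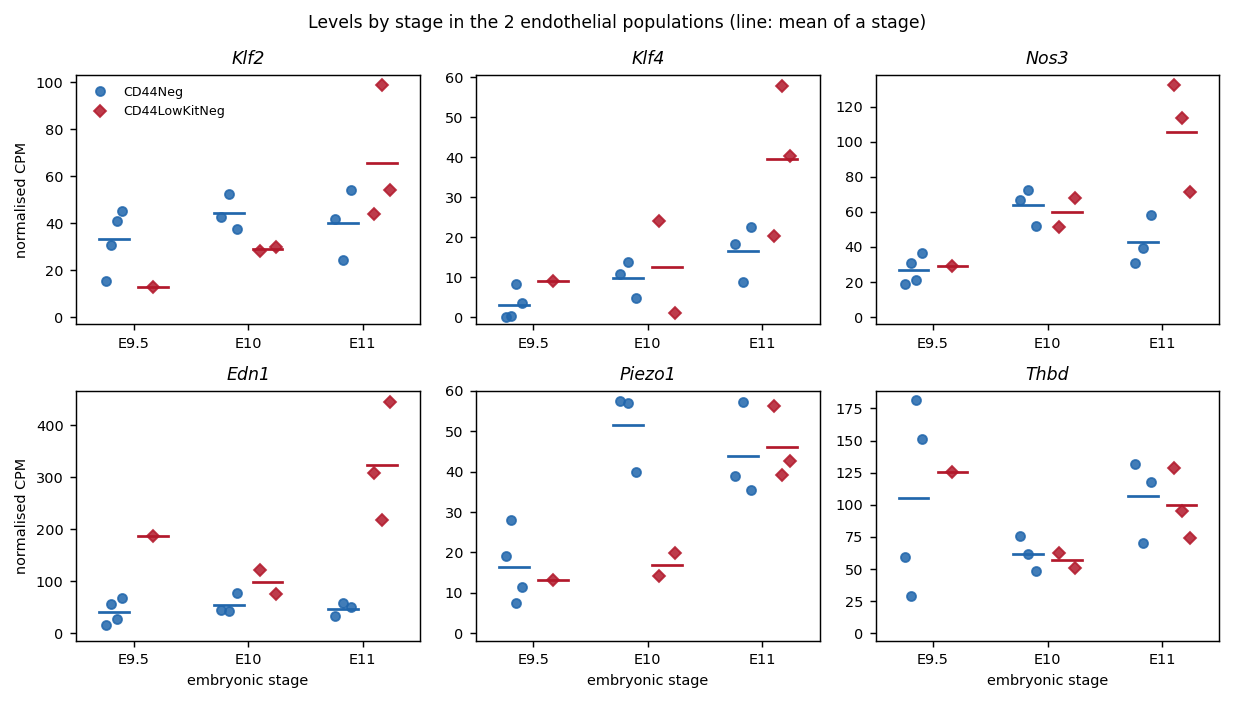
Normalised CPM (vertical axes) of 6 of the genes by embryonic stage in CD44Neg (blue circles) and CD44LowKitNeg (red diamonds), with 1 symbol per library and a line at the mean of each stage. At E11 the CD44LowKitNeg libraries hold 217 to 445 CPM of *Edn1* and the CD44Neg libraries 32.8 to 57.8, while the single E9.5 library of CD44LowKitNeg stands alone.

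Levels can be compared between genes once divided by exonic length, taken here from GENCODE M21 on GRCm38, which may differ from the annotation used for counting. *Edn1* was the most abundant of the 8 in CD44LowKitNeg, at 106 ± 62.7 CPM per kb (SD, n = 6), followed by *Klf2* at 24.2 ± 16.3, *Thbd* at 24.1 ± 8.78 and *Klf10* at 22.7 ± 4.66, which do not differ beyond their spread. In CD44Neg the order opened with *Klf6* at 25.7 ± 5.43 CPM per kb, *Thbd* at 24.9 ± 13.4, *Edn1* at 22.1 ± 8.66, *Klf10* at 21.5 ± 6.79 and *Klf2* at 20.9 ± 6.56 (SD, n = 10), again within their spread. *Klf4* (3.01 ± 2.47) and *Piezo1* (4.28 ± 2.27) were the lowest there. In CD44High *Klf6* led at 27.1 ± 19.2 CPM per kb (SD, n = 3), and *Nos3* stood at 0.201 ± 0.112.

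*Nos3* lies at chr5:24364810-24384474 on the plus strand, where 1040 exonic bases are shared with *Gm15587*, an antisense gene not analysed here, and 294 with *Atg9b*, also on the opposite strand. *Piezo1* lies at chr8:122481698-122551329 on the minus strand, where 990 are shared with *Ctu2*. The strand setting of the counting is not given in the sources used here, so reads in the shared bases cannot be told apart. *Atg9b* was counted at 0 to 43 reads per library. *Ctu2*, which acts in tRNA thiolation, was at 16.8 to 36.0 CPM in CD44Neg and 7.59 to 21.6 in CD44LowKitNeg, next to *Piezo1* at 7.45 to 57.5 and 13.1 to 56.3. *Edn1* shares 35 of its 2139 exonic bases with *Gm47118*, an antisense gene on the opposite strand, also not analysed here. The *Nos3*, *Piezo1* and *Edn1* values carry that uncertainty.

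Among genes upstream of the factors, the flow sensors changed in both directions between the endothelial populations, in a comparison that called 10.2% of all genes. Of 19 tested, 3 rose, *Cdh5* (log2 1.48 ± 0.24, adjusted p = 3.00e-04), the phosphatase *Ptprb* (1.79 ± 0.34, 8.73e-04) and the polycystin channel *Pkd2* (1.59 ± 0.40, 0.00771), while 2 fell. The 2 that fell were *Flt4*, the VEGF receptor that tunes the response to shear, from 306 ± 66.5 to 80.0 ± 27.9 CPM (log2 -1.93 ± 0.24, adjusted p = 1.71e-05), and *Piezo2*, the paralogue of *Piezo1*. *Piezo2* was at 94.1 ± 41.2 CPM (SD, n = 10) in CD44Neg and at 3.997 ± 3.45 (SD, n = 6) in CD44LowKitNeg, with no overlap (log2 -4.55 ± 0.60, adjusted p = 3.56e-05), whereas the *Piezo1* range of CD44LowKitNeg lay inside that of CD44Neg. In the MEKK3, ERK5 and MEF2 relay with its inhibitors of the cerebral cavernous malformation (CCM) group, 1 of 15 tested rose, the CCM gene *Krit1* (log2 1.21 ± 0.25, adjusted p = 0.00194), and the gene of ERK5, *Mapk7*, had a log2 difference of -0.98 ± 0.41 (adjusted p = 0.102). Of 9 other KLF family genes tested, 0 were called by edgeR, 2 had an unadjusted p under 0.05 and DESeq2's Wald test called 1. The one with the smallest p was *Klf11*, a TGFβ-inducible relative of *Klf10*, at 7.22 ± 4.64 CPM in CD44Neg and 23.9 ± 5.30 in CD44LowKitNeg, without overlap (log2 1.73 ± 0.52, adjusted p = 0.0233).

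Downstream, the genes around each effector moved unevenly from CD44Neg to CD44LowKitNeg, and each count can be set against the 10.2% of all 11022 genes called (4.94% higher). In the nitric oxide pathway 1 of 20 tested rose and 3 fell. *Hsp90ab1*, a chaperone that binds the synthase, fell by 0.96 ± 0.12 on the log2 scale (adjusted p = 1.62e-05). The calmodulin gene *Calm3* fell by 0.93 ± 0.20 (adjusted p = 0.00269), and *Nostrin*, which traffics the synthase, went from 16.2 ± 7.86 to 0.966 ± 1.18 CPM (adjusted p = 0.0045). The caveolin *Cav2* rose by 1.29 ± 0.31 (adjusted p = 0.00542). In the endothelin pathway none of 3 tested was called by edgeR or the Wald test, 0 had an unadjusted p under 0.05, and the converting enzyme *Ece1*, which turns the precursor into endothelin-1, had like levels (log2 0.05 ± 0.23, adjusted p = 0.916). Around thrombomodulin, 2 of 9 tested rose and 1 fell. *Procr*, the receptor of protein C, rose from 15.8 ± 7.85 to 132 ± 60.2 CPM (log2 3.07 ± 0.48, adjusted p = 2.08e-04) and the von Willebrand factor *Vwf* from 63.7 ± 37.6 to 735 ± 471 (log2 3.54 ± 0.50, adjusted p = 7.04e-05), both without overlap, while urokinase, *Plau*, fell by 2.59 ± 0.55 (adjusted p = 0.00241).

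Of 16 flow response targets tested in the same comparison, 5 rose and 1 fell, with a median log2 difference of 0.74 against 0.01 over all genes. *Gja5* and *Gja4*, the arterial connexins, rose by 2.49 ± 0.29 (adjusted p = 1.05e-05) and 1.97 ± 0.30 (adjusted p = 1.46e-04). The prostacyclin synthase *Ptgis* rose by 2.73 ± 0.44 (adjusted p = 2.26e-04), and the matrix inhibitor *Timp3* fell by 1.66 ± 0.30 (adjusted p = 6.35e-04). Of 11 genes of the YAP and TAZ pathway tested, which also answers to mechanical load, *Tead1* rose by 1.55 ± 0.36 (adjusted p = 0.00498) and *Amotl1* fell by 1.32 ± 0.25 (adjusted p = 0.0010).

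At the step to CD44LowKitPos 16 genes of these lists were called lower and 3 higher, where 4.26% of all genes were called, 1.71% as lower, and 330 of the 552 called were higher. That genome-wide split turned with the setting, to 113 of 376 higher at matched stages, 429 of 1265 by the Wald test and 218 of 491 with size factors. Of 20 flow sensors tested 6 fell and 0 rose, among them *Kdr*, the main VEGF receptor of endothelium (log2 -3.03 ± 0.53, adjusted p = 0.00112) and *Cdh5* (log2 -2.51 ± 0.43, adjusted p = 0.00109). *Cdh5*, *Kdr*, *Pecam1* and *Tie1* also stand in the endothelial marker list, so the counts of the lists are not separate results. In the relay 2 of 16 fell, the class IIa deacetylase *Hdac7* (log2 -2.19 ± 0.48, adjusted p = 0.00532) and *Heg1*, the partner of the CCM complex (log2 -2.51 ± 0.59, adjusted p = 0.00788). Of 19 flow response targets 4 fell, *Bmpr2*, *Gja4*, *Gja5* and *Acvrl1*, by 1.93 to 3.70 on the log2 scale, and 1 rose, *Ptgs1* (log2 3.62 ± 0.86, adjusted p = 0.0084). In the nitric oxide pathway 2 of 23 rose and 1 fell. *Ddah2*, which clears an inhibitor of the synthase, fell by 1.32 ± 0.25 (adjusted p = 0.00194), while *Hsp90ab1* rose by 0.71 ± 0.17 (adjusted p = 0.00759). *Ece1* fell by 1.94 ± 0.46 (adjusted p = 0.0084), the 1 call among 5 endothelin pathway genes. Of 11 other KLF genes, 10 haemostasis genes and 12 YAP and TAZ genes tested, 0 were called by edgeR, while 3, 5 and 8 had an unadjusted p under 0.05 and the Wald test called 0, 2 and 4. The smallest p among them was that of *Vwf* (log2 -2.98 ± 0.76, adjusted p = 0.0133). Of 27 immediate-early and dissociation genes 2 fell, *Btg1* (log2 -1.73 ± 0.35, adjusted p = 0.00326) and *Dusp6* (log2 -1.80 ± 0.38, adjusted p = 0.0039).

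**Figure D4:**
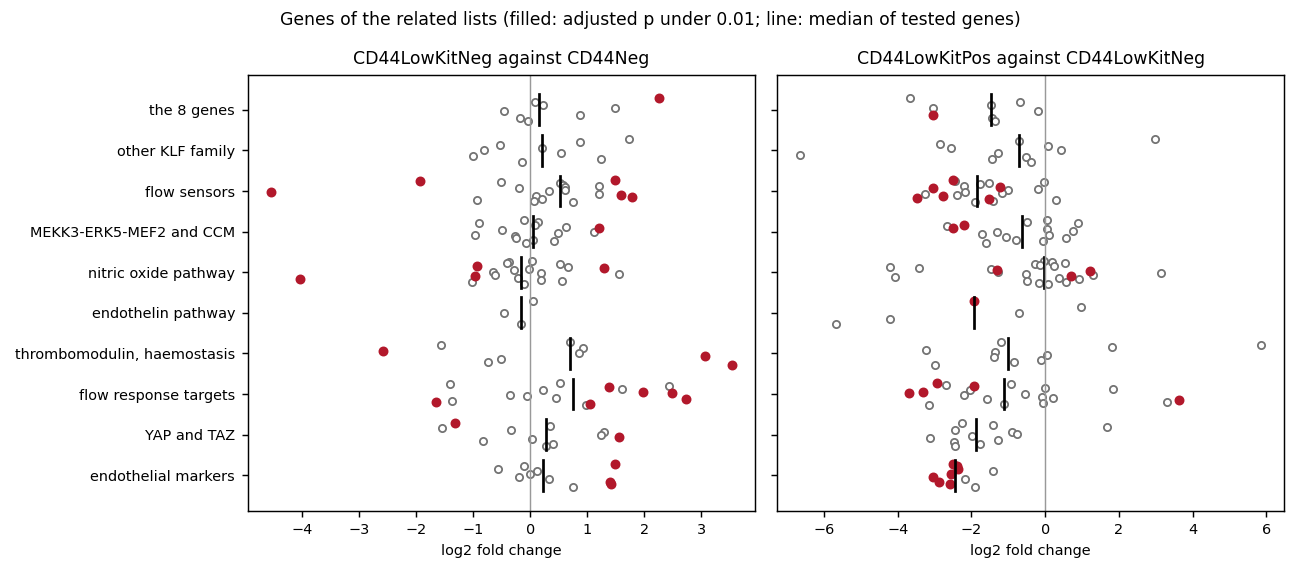
Log2 fold changes (horizontal axes) of the tested genes of each list in 2 comparisons, 1 circle per gene, filled where the adjusted p was under 0.01, with a line at the median of the list. The 10 endothelial markers have medians of 0.23 on the left and -2.44 on the right, and the 8 genes 0.15 and -1.46. *Cdh5*, *Kdr*, *Pecam1* and *Tie1* are drawn both as flow sensors and as endothelial markers.

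In CD44High against CD44LowKitPos, where 3.01% of all genes were called and 2.23% as lower, the other KLF family gave 1 call of 11, *Klf1*, the erythroid factor, which was at 0.465 CPM or less in CD44LowKitPos and at 23.4 to 163 in CD44High (adjusted p = 1.85e-04). The flow sensors gave 8 calls of 20, all lower, and the relay 1 of 16, *Rasip1*, at 24.3 to 45.8 CPM in CD44LowKitPos and 0 to 1.33 in CD44High. In the same contrast 4 of 10 haemostasis genes and 2 of 12 YAP and TAZ genes fell, 4 of 19 flow response targets fell and 1 rose, and 0 of 23 nitric oxide, 5 endothelin and 27 immediate-early genes were called by edgeR, while 2, 2 and 6 had an unadjusted p under 0.05 and the Wald test called 1, 1 and 0. The gene that rose, *Hmox1*, which breaks down haem, was at 17.1 to 39.0 CPM and then at 48.5 to 1073 (adjusted p = 3.04e-04).

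The patterns over all 22 libraries were set beside those of every tested gene by the Pearson correlation of log2 CPM, as a description. The points share 4 populations and 3 stages, so genes that follow the populations resemble each other. *Nos3* was most like *Dll4*, an arterial Notch ligand (r = 0.967), *Gja5* (r = 0.965) and *Hspg2*, the gene of perlecan (r = 0.962). *Edn1* was most like *Stmn2* (r = 0.944), *Npr3*, the clearance receptor of natriuretic peptides (r = 0.943), and *Ccnyl1* (r = 0.934). *Piezo1* was most like *Nisch* (r = 0.924), *Llgl1* (r = 0.914) and the fibronectin receptor subunit *Itga5* (r = 0.901). *Thbd* was most like *Cd93*, *She* and *Mcam* (r = 0.905, 0.901 and 0.901). *Klf2* was most like *Hsd3b7*, *Emilin1* and *Nfic* (r = 0.876, 0.872 and 0.872), *Klf10* like *Akap11*, *Hmcn1* and *Parvb* (r = 0.809, 0.791 and 0.788), and *Klf4* like *Ppdpf*, *Atl1* and *Grasp* (r = 0.809, 0.801 and 0.800). *Klf6* had the weakest neighbours, *Ensa*, *Cisd3* and *Arpc3* (r = 0.688, 0.686 and 0.684). Between the genes themselves, *Nos3* and *Edn1* stood at r = 0.849, *Thbd* and *Edn1* at 0.801, *Klf2* and *Nos3* at 0.798 and *Piezo1* and *Nos3* at 0.771, while *Klf6* was within -0.014 to 0.153 of each of the others.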

How the data were processed

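The deposited values are raw counts per gene symbol. For them the authors prepared SMART-Seq2 libraries, trimmed the reads (FASTX), aligned them (RNA STAR) and counted them per gene (htseq-count). Per the labels the build is mm10, and the annotation and strand setting are not given in the sources used here. These counts were filtered with filterByExpr (minimum count 10, minimum total 15), scaled by TMM and tested with the quasi-likelihood test of edgeR 4.0.16 (R 4.3.3, prior count 0.125), with Benjamini-Hochberg adjustment over all genes of a fit and calls at an adjusted p under 0.01. CD44LowKitNeg was compared with CD44Neg over 16 libraries, the other populations in 1 fit of 22, and stages in 1 fit of 9 groups of population and stage. The populations share libraries between comparisons. Alternatives were DESeq2 1.42.0 (size factors, Wald test), limma 3.58.1 (voom), no filter, a threshold of 0.05, stage as a covariate, contrasts at single or matched stages, all 22 libraries and each library left out. Leaving CD44High out of the fit and fits of E10 or E11 libraries only were chosen after seeing the data. Steps were tested on simulated data. The genes and lists were chosen with earlier results of these data known. Besides the 8 genes, up to 4 genes of each list with the smallest p of a comparison are named, and *Pkd2* and *Ptgs1* were named after their values were seen. The 3 genes most like each of the 8 were taken by Pearson correlation of log2 CPM (prior count 2). Gene lengths and overlaps came from GENCODE M21, promoters from RefSeq. A gene of the nitric oxide list that the rule would name is not reported here.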

Additional observations from a re-analysis of the deposited data

How the results depend on the processing

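Over 1296 comparisons of a gene under another setting, 1183 kept their direction and side of the threshold, 11 lost a call, 41 gained one and 61 changed sign. A stage contrast below is one of the fit of 22 libraries by population and stage, so the libraries compared and the fit both change, while a stage fit holds the libraries of that stage only and was chosen after seeing the data. Causes were not tested. In the rest of this paragraph, counts in brackets are those over all genes. The number of the 8 genes called between CD44LowKitNeg and CD44Neg was 1 (1121). It went to 0 with all 22 libraries (1097), the E10 (30) or the E11 contrast (422) or the E10 fit (1). Between CD44LowKitPos and CD44LowKitNeg it went from 1 (552) to 2 at an adjusted p under 0.05 (1619) or by DESeq2's Wald test (1265). It ran from 0 to 2 with single libraries left out (65 to 687). Between CD44High and CD44LowKitPos it ran from 0 to 1 with single libraries left out (251 to 392). Between CD44LowKitPos and CD44Neg it went from 0 (451) to 1 at 0.05 (941), by the Wald test (829) or at matched stages (599). It ran from 0 to 1 with single libraries left out (159 to 630). Between CD44High and CD44LowKitNeg it went from 3 (2067) to 7 at 0.05 (3471) or by the Wald test (2665). It went to 6 there with the E11 contrast (2367) or the E11 fit (1847). Between CD44High and CD44Neg it went from 2 (1864) to 6 at 0.05 (2917) and to 5 by the Wald test (2253).

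The sign changes were all in log2 differences that passed no test. In CD44LowKitNeg against CD44Neg, *Klf2* was at -0.0067 with voom, -0.15 with stage as a covariate and -0.55 and -0.53 with the E10 contrast and fit, *Nos3* at -0.039 and -0.016 with these, *Piezo1* at 0.11 and 0.13 with the E11 contrast and fit, and *Thbd* at 0.015 with size factors or the Wald test and 0.051 with voom. In CD44High against CD44Neg, *Klf6* was at -0.20 and -0.18 with the E11 contrast and fit. In CD44Neg at E11 against E9.5, *Thbd* was at 0.063 with size factors, 0.036 with no filter and 0.064 with the Wald test. With single libraries left out, *Klf2* ran from -0.18 to 0.44 and *Thbd* from -0.18 to 0.15 in CD44LowKitNeg against CD44Neg, and *Klf6* from -0.54 to 0.13 in CD44LowKitPos against CD44LowKitNeg. *Edn1* ran from -7.12, with 1 read left in CD44High and so no measure of size, to 0.44 and *Klf6* from -0.028 to 1.04 in CD44High against CD44LowKitPos, and *Klf6* from -0.25 to 0.87 against CD44LowKitNeg and -0.69 to 0.36 against CD44Neg. In CD44Neg, E11 against E9.5 gave *Edn1* from -0.086 to 0.52, *Klf10* from -0.15 to 0.48 and *Thbd* from -0.28 to 0.37, E10 against E9.5 gave *Edn1* from -0.0070 to 0.72, and E11 against E10 gave *Edn1* from -0.37 to 0.15, *Klf10* from -0.45 to 0.24 and *Klf2* from -0.40 to 0.15. In CD44LowKitNeg at E11 against earlier, *Klf10* ran from -0.22 to 0.12 and *Klf6* from -0.61 to 0.26. Without CD44High replicate 22, the only library of that population with a *Klf4* count, a fitted *Klf4* change there has no count behind it and is not given. *Klf4* in CD44LowKitNeg at E11 against earlier was 1.84 with all libraries, 4.31 without replicate 15 and 1.21 without replicate 16. In the interaction *Klf10* ran from -0.31 to 0.34, *Klf4* from -0.061 to 4.60, *Klf6* from -0.60 to 0.060 and *Thbd* from -0.21 to 0.20.

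Counts over all genes moved by more than 1.5 times as follows. CD44LowKitNeg against CD44Neg went from 1121 to 2217 at 0.05, 1746 by the Wald test, 422 and 30 with the E11 and E10 contrasts and 376 and 1 with the E11 and E10 fits. CD44LowKitPos against CD44LowKitNeg went from 552, 330 of them higher, to 1619 at 0.05 and 1265 by the Wald test, 429 of them higher, and ran from 65 to 687 with single libraries left out. The median log2 difference of all genes there was -0.155 with size factors and -0.156 by the Wald test, against -0.0208. At 0.05 CD44High against CD44LowKitPos went from 390 to 784 (716 by the Wald test), CD44LowKitPos against CD44Neg from 451 to 941 (829 by the Wald test, 159 to 630 with single libraries left out), and CD44High against CD44LowKitNeg and CD44Neg from 2067 to 3471 and from 1864 to 2917 (1011 with the E11 fit). By the Wald test 262 of 829, 1001 of 2665 and 859 of 2253 calls were higher in CD44LowKitPos against CD44Neg and CD44High against CD44LowKitNeg and CD44Neg, against 269 of 451, 1009 of 2067 and 925 of 1864. With CD44High replicate 22 left out, CD44High against CD44LowKitPos gave 251 and CD44High against CD44LowKitNeg 1334. Of the 6 genes called between E11 and E9.5 in CD44Neg, 1 was higher, and 2 of 6 were with size factors. Between stages of CD44Neg, the counts at 0.05, with no filter and by the Wald test were 99, 101 and 180 for E11 against E9.5 (6 as reported, 0 to 6 with single libraries left out), 8, 30 and 97 for E10 against E9.5 and 2, 15 and 15 for E11 against E10. For CD44LowKitNeg at E11 they were 497, 509 and 598 (174 as reported, 53 to 158 with single libraries left out), and for the interaction 20, 64 and 53 (2 as reported, 1 with size factors, 1 to 12 with single libraries left out). Single libraries could not be paired because the replicate numbers in the labels run on across the populations, so no 2 groups share a number. Populations do share stages, and with them date codes, and stage entered as a covariate for CD44LowKitNeg against CD44Neg. Where a fit without 1 library left 1 sample in a group, that sample was assumed to vary like the other groups. With 3 libraries in CD44LowKitPos and CD44High, and 1 CD44LowKitNeg library at E9.5, modest differences of these genes may have gone undetected, and levels under about 1 CPM rest on a few reads.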
